A study of Mus musculus with 4 samples.

Results

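The interferon-gamma induced GTPases are 10 genes that encode GTPases of cell-autonomous defence. They were taken by gene name from the deposited table of 54532 genes, and each name stood in it once. Of the 10, 4 are guanylate-binding proteins (GBPs: Gbp2, Gbp3, Gbp4 and Gbp7) and 6 are immunity-related GTPases (IRGs: Iigp1, Tgtp2, Ifi47, Igtp, Irgm1 and Irgm2). The genes were selected with measured values of these libraries known, among them the difference between the groups. Their levels in both groups are therefore given as a description, with no test.

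The study measured total RNA of mouse splenic CD4+ T cells (wild type, WT). Naive cells were cultured for 3 days in conditions for T follicular helper (Tfh) cells, which support antibody responses of B cells. The DMF group held dimethyl fumarate, a fumaric acid ester known as an activator of the transcription factor Nrf2, and the control group had no treatment. Each group holds 2 libraries. No interferon is named in the labels. The age of the mice and the DMF dose are not stated in the labels. Nothing in the labels says that replicates came from separate cultures or animals, so p-values reflect the spread between these libraries, which may be of technical origin.

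Interferon-gamma binds the receptor chains IFNGR1 and IFNGR2, which signal through the kinases JAK1 and JAK2. GBP and IRG promoters are known for gamma-activated (GAS) sites and for interferon response elements, which IRF1 binds. In infected mouse cells both families coat the vacuoles of pathogens such as Toxoplasma and Chlamydia, GBPs as large dynamin-like proteins that assemble into polymers and IRGs as smaller GTPases that break the vacuole membrane. T cells express members of both families too.

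Library size and quality were similar except in control replicate 2. The libraries held 17134385 and 17516953 reads with DMF, against 17171199 and 15900118 reads in the controls. Genes of ribosomal proteins took 6.42% and 6.43% of reads with DMF, against 7.01% and 14.1% in control replicates 1 and 2. Over the 12166 tested genes, log2 values differed with an SD of 0.32 between the DMF libraries, against 0.74 between the controls. The T cell gene Cd4 was at 103 and 100.3 FPKM with DMF, against 128 and 105 FPKM in the controls. The Tfh genes Bcl6 (6.58 and 6.75 with DMF, against 4.55 and 3.24 FPKM in the controls) and Cxcr5 (2.05 and 1.82 with DMF, against 1.13 and 0.991 FPKM in the controls) were present in every library, as was Pdcd1 (136 and 139.9 with DMF, against 80.7 and 100.3 FPKM in the controls). Icos (35.9 and 36.8 with DMF, against 50.2 and 49.0 FPKM in the controls) and Il21 (9.17 and 10.8 with DMF, against 31.2 and 25.5 FPKM in the controls) lay the other way. FPKM is fragments per kilobase of gene and per unit of sequencing depth, a level per length.

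In the deposited coordinates, which follow GRCm38, the genes lie in clusters. Gbp3 (chr3:142560026-142573209), Gbp7 (chr3:142530342-142550149) and Gbp2 (chr3:142620602-142638008) are neighbours on the plus strand, while Gbp4 (chr5:105115767-105139586) lies in the second GBP cluster on the minus strand. The IRGs Irgm1 (chr11:48861968-48871683, minus strand), Tgtp2 (chr11:49057194-49064206, minus strand), Ifi47 (chr11:49076587-49096974, plus strand), Igtp (chr11:58199556-58207591, plus strand) and Irgm2 (chr11:58199618-58222782, plus strand) share a chromosome, and Iigp1 (chr18:60376029-60392627, plus strand) stands elsewhere.

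All 10 genes had both DMF libraries below both controls, as did 26.8% of the 12166 tested genes. Because the genes were selected on this contrast, nothing is read from that count. What the selection leaves to describe is how unequal the differences were. By the median, the 6 IRGs lay further below the controls than the 4 GBPs. On this scale Gbp2, at -1.33, still lay below every IRG of the 10 but Igtp. By the ratio of means, Gbp2 at 2.54-fold lower came after Tgtp2, Iigp1 and Igtp. The median log2 difference (DMF minus control, on the log2(FPKM + 1) scale, which understates the change of low genes) was -1.11 over the 6 IRGs and -0.61 over the 4 GBPs, against -0.01 over all tested genes. A difference of at least 1 below, with the libraries apart, was seen for 5 of 6 IRGs and 1 of 4 GBPs, against 4% of all tested genes. The selection on this contrast favours such differences, so nothing is read from these counts either. The IRG median was -1.17 with control replicate 1 left out and -1.25 with control replicate 2 left out. For the GBPs these values were -0.37 with control replicate 1 left out and -0.88 with control replicate 2 left out. The tested relatives outside the 10 had the reverse order, with medians of 0.23 over 5 other IRGs and -0.65 over 3 other GBPs. Those medians were 0.72 and -0.61 without control replicate 1, and -0.63 and -0.69 without control replicate 2. The summed level of CD8 T and NK cell markers was also lower with DMF, 2.61 and 2.55 FPKM against 12.2 and 20.8 FPKM in the controls, and its part in the result was not tested. In bulk RNA, fewer cells of a type and less RNA per cell cannot be told apart.

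**Figure D1:**
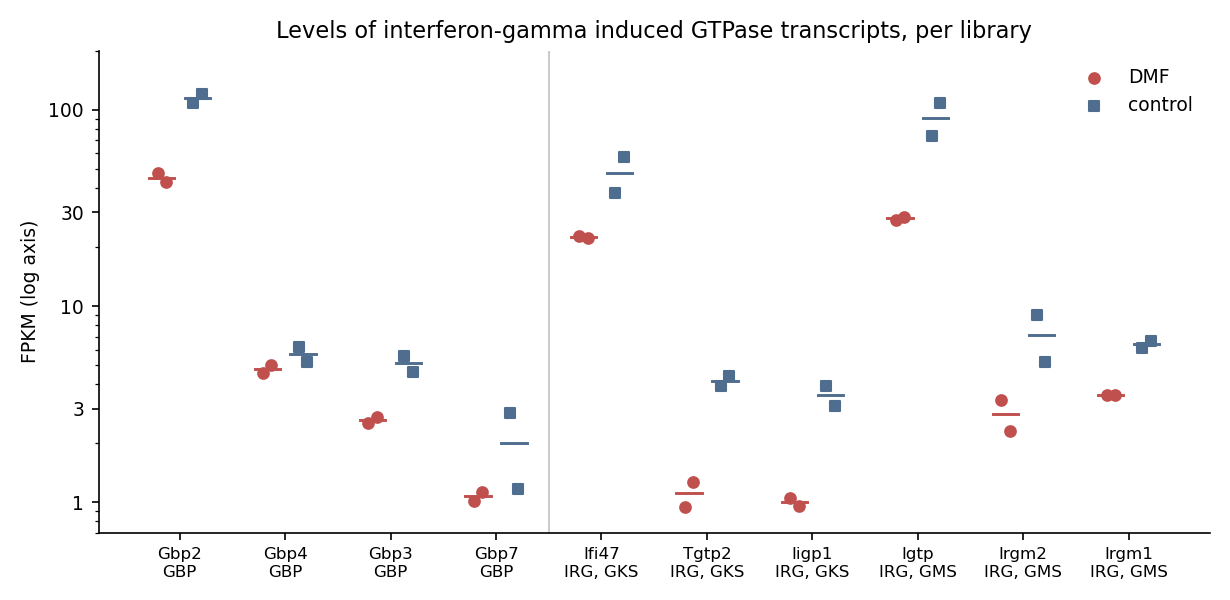
FPKM (log axis) of the 10 GTPases in each library, with DMF as circles and control as squares, GBPs left of the line and IRGs right of it. Horizontal bars are group means of 2 libraries. Gbp2, Igtp and Ifi47 lie above 20 FPKM in every library, and the other 7 genes below 10 FPKM.

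The GBPs were led by a single gene. Gbp2, a prenylated GBP that moves onto pathogen vacuoles, had 47.6 and 42.7 FPKM with DMF, against 108 and 121 FPKM in the controls. The means were 45.1 ± 3.51 FPKM with DMF and 115 ± 8.85 FPKM in the controls (SD, n = 2 each), 2.54-fold lower with DMF, from 2193 and 2004 reads with DMF against 4832 and 4236 reads in the controls. The groups stood far apart, since the lower control was 2.28 times the higher DMF library. Gbp2 made up 85.4% and 82.8% of the summed FPKM of the 4 GBPs with DMF, against 88.1% and 91.6% in the controls, so it sets the family total. That total was 55.7 and 51.5 FPKM with DMF, against 123 and 132 FPKM in the controls.

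The remaining GBPs were all low and differed less. Gbp3 had 2.53 and 2.72 FPKM with DMF, against 5.58 and 4.64 FPKM in the controls, a 1.95-fold lower mean with no overlap between the groups. Gbp4 had 4.56 and 4.995 FPKM with DMF, against 6.18 and 5.21 FPKM in the controls, and its groups came close. Its mean was 1.19-fold lower with DMF, and its lower control was only 1.04 times the higher DMF library. When FPKM were rescaled to the total of reads per library, Gbp4 had 4.88 and 5.32 with DMF, against 6.38 and 4.57 in the controls, and the groups overlapped. Gbp4 took a larger share of the family with DMF, 8.19% and 9.70%, against 5.03% and 3.95% in the controls.

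Gbp7, which in mouse macrophages takes part in assembling the NADPH oxidase at vacuoles, rested on a single control. It had 1.02 and 1.13 FPKM with DMF, against 2.85 and 1.16 FPKM in the controls. Control replicate 1 was 2.66 times the DMF mean, and control replicate 2 was 1.08 times that mean. Its log2 difference of -0.48 became -0.06 when control replicate 1 was left out and -0.89 when control replicate 2 was left out. Rescaled to total reads it had 1.09 and 1.20 with DMF, against 2.95 and 1.02 in the controls, so the lower control lay under both DMF libraries.

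IRG proteins fall into classes by the P-loop, the stretch that holds the phosphates of the nucleotide. GKS proteins have a lysine at its seventh position and include the effectors that damage vacuoles, while GMS proteins have a methionine there and act as regulators that keep effectors off the cell's own membranes. The P-loop codons below show this difference. They were read from the GENCODE M21 annotation on GRCm38, 24 bases for the 8 residues, 5′ to 3′ on the coding strand, with the codon for that position in capitals. All 9 lie in coding exons, in exon 2 of 11 for the GBPs, exon 2 of 2 for Tgtp2 and exon 3 of 3 for Ifi47, Igtp, Irgm1 and Irgm2.
Gbp2, chr3:142623826-142623849, plus strand: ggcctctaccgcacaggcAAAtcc
Gbp3, chr3:142561878-142561901, plus strand: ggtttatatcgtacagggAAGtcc
Gbp4, chr5:105136872-105136895, minus strand: ggatggtcccatacagggAAGtcc
Gbp7, chr3:142534655-142534678, plus strand: ggactataccgtacgggaAAAtcc
Tgtp2, chr11:49059534-49059557, minus strand: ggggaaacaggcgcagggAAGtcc
Ifi47, chr11:49095648-49095671, plus strand: gggcagtctgggactggcAAGtcc
Igtp, chr11:58206275-58206298, plus strand: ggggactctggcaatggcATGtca
Irgm1, chr11:48866761-48866784, minus strand: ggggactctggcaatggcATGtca
Irgm2, chr11:58219695-58219718, plus strand: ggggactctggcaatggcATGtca
The lysine codon (AAA or AAG) stands in the 4 GBPs, Tgtp2 and Ifi47. Igtp, Irgm1 and Irgm2 share the same 24 bases with the methionine codon ATG, although their proteins differ in length at 423, 409 and 407 residues. Iigp1 also has the lysine codon AAG.

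The GKS IRGs stood at unequal levels. Iigp1, whose protein loads early onto the Toxoplasma vacuole, had 1.05 and 0.961 FPKM with DMF, against 3.90 and 3.11 FPKM in the controls, a 3.49-fold lower mean. Tgtp2, another vacuole-coating IRG, had 0.948 and 1.28 FPKM with DMF, against 3.90 and 4.42 FPKM in the controls, and its 3.74-fold lower mean was the widest ratio among the 10 genes. Ifi47 was far more abundant, with 22.8 and 22.2 FPKM with DMF, against 37.7 and 57.4 FPKM in the controls, and its mean was 2.11-fold lower. Both DMF libraries lay below both controls for these 3 genes, as for all 10 genes and for 26.8% of tested genes, and nothing is read from it. The log2 differences were -1.16, -1.29 and -1.02 for Iigp1, Tgtp2 and Ifi47, values that lie close together only with the pseudocount of 1. With a pseudocount of 0.1 they were -1.70, -1.82 and -1.04 for the same genes. The control libraries of Ifi47 were 1.53 times apart. Its difference was -0.72 when control replicate 2 was left out and -1.31 when control replicate 1 was left out.

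Among the GMS IRGs the highest and the steadiest members of the family stood side by side. Igtp, a regulator on the endoplasmic reticulum, had 27.5 and 28.5 FPKM with DMF, against 74.0 and 108 FPKM in the controls. The means were 28.0 ± 0.682 FPKM with DMF and 91.1 ± 24.1 FPKM in the controls (SD, n = 2 each). That was 3.25-fold lower with DMF, and the log2 difference of -1.64 was the largest in size of the 10 with the pseudocount of 1. With a pseudocount of 0.1 Igtp, at -1.67, came after Tgtp2 and Iigp1. Irgm1, found on the Golgi and on lysosomes and needed by mice for resistance to mycobacteria, had 3.53 and 3.54 FPKM with DMF, against 6.13 and 6.64 FPKM in the controls. Its spread was narrow in both groups, and its mean was 1.81-fold lower with DMF, the smallest ratio of the 6 IRGs. Irgm2 had 3.33 and 2.32 FPKM with DMF, against 9.01 and 5.19 FPKM in the controls, a 2.51-fold lower mean with the widest relative spread of the 6. The GMS differences of -1.64, -0.70 and -1.05 for Igtp, Irgm1 and Irgm2 overlap with the GKS values. By ratio Igtp lay inside the GKS range of 2.11 to 3.74 and Irgm1 outside it.

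Some shares of the IRG pool differed between the groups. Igtp was 46.5% and 48.4% of the summed FPKM of the 6 IRGs with DMF, against 54.98% and 58.5% in the controls. Ifi47 was 38.6% and 37.8% with DMF, against 28.0% and 31.1% in the controls. These shares did not overlap between groups, and neither did those of Tgtp2 (lower with DMF) and Irgm1 (higher with DMF). The shares of Iigp1 and Irgm2 overlapped. All are parts of a single total, so a lower share of Igtp raises the others and the shares are not independent. In FPKM 26.8% of the 12166 tested genes lay below and 26.4% above without overlap, so nothing is read from which shares overlapped. The sum over the 6 IRGs was 59.2 and 58.8 FPKM with DMF, against 135 and 185 FPKM in the controls. Gbp2, Igtp and Ifi47 held the 3 highest mean levels in both groups. With DMF Gbp4 came next at 4.78 ± 0.305 FPKM, above Irgm1 at 3.53 ± 0.00927, Irgm2 at 2.83 ± 0.714 and Gbp3 at 2.62 ± 0.139. Irgm2 was not separated by its spread from Irgm1 or from Gbp3. In the controls the next places went to Irgm2 at 7.10 ± 2.69 FPKM, Irgm1 at 6.38 ± 0.359, Gbp4 at 5.70 ± 0.685 and Gbp3 at 5.11 ± 0.666, neighbours that did not differ beyond their spread (SD, n = 2 each). From the highest to the lowest of the 10 the mean level spanned 44.9-fold with DMF and 57.1-fold in the controls.

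**Figure D2:**
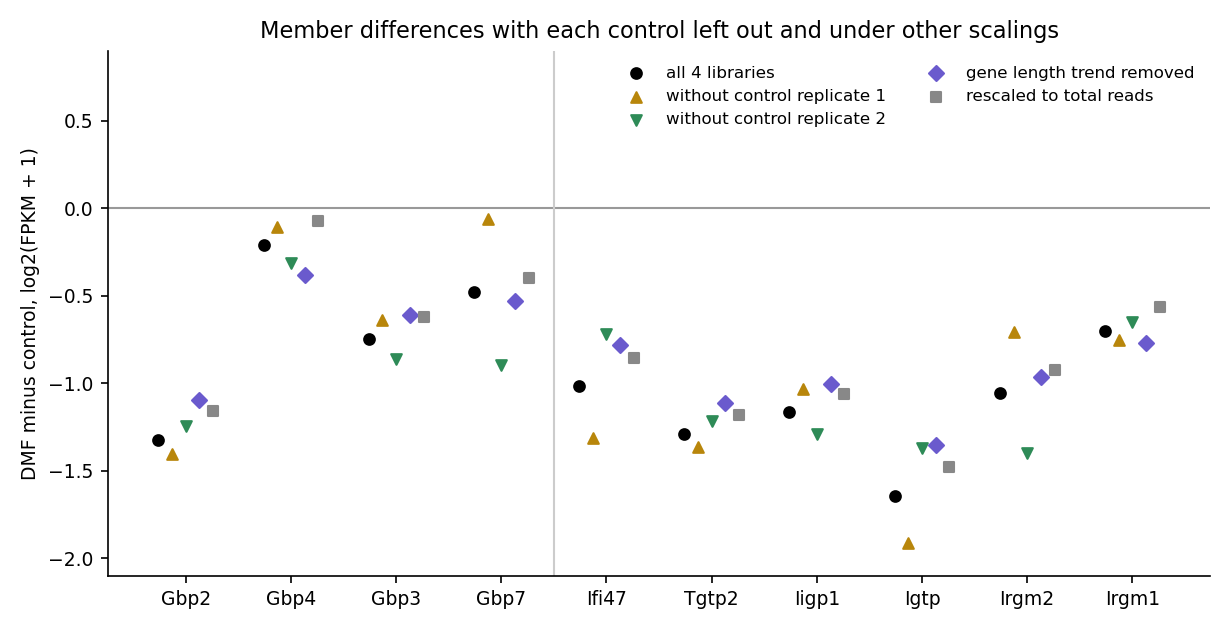
Log2 difference (DMF minus control, log2(FPKM + 1)) of each GTPase with all 4 libraries, with either control left out, with a gene length trend removed and with FPKM rescaled to total reads. All points lie below 0. Gbp7 moves between -0.06 and -0.89 with the control that is left out, and Gbp4 lies between -0.38 and -0.07.

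Several genes lie beside near-copies, which limits how reads can be assigned. Of the 50-base windows in the exons of Tgtp2, 86.6% also occur in another gene, mostly its neighbour Tgtp1. Summed over that pair, the level was 2.16 and 2.75 FPKM with DMF, against 9.41 and 10.9 FPKM in the controls, 4.13-fold lower with DMF. Igtp and Irgm2 share 162 exon bases in the annotation, and 11.8% of the windows of Igtp recur in Irgm2. Their sum was 30.8 and 30.8 FPKM with DMF, against 83.0 and 113 FPKM in the controls, 3.18-fold lower with DMF. For Gbp7 12.7% of windows recur elsewhere, mostly in the overlapping Gm43802. For the other 6 genes the share ran from 0.31% for Irgm1 to 7.7% for Gbp4. Levels of Tgtp2, and in part of Igtp, Irgm2 and Gbp7, are therefore uncertain by gene. Summed reads do not depend on how a pair's reads were divided, provided that shared reads were neither dropped nor counted for both genes. How shared reads were handled is not known, because no counter is named. Tgtp1 and Tgtp2 together had 122 and 158 reads with DMF, against 516 and 468 reads in the controls. Igtp and Irgm2 together had 1243 and 1235 reads with DMF, against 3241 and 3312 reads in the controls.

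The promoters hold the letters that interferon factors are known to bind, and these are shown because they differ between the genes. RefSeq promoter windows (GRCm38.p6, 250 bases before to 50 after the start, 300 in all) were matched for 8 of the 10 genes. On both strands they were searched for the IRF pair GAAANNGAAA, a form of the interferon response element, and for the GAS letters TTCNNNGAA. The 2 motifs do not overlap in the windows printed. The windows of the most abundant GBP and the most abundant IRG are given whole, 5′ to 3′, with matches in capitals.
Gbp2, chr3:142620413-142620712, plus strand: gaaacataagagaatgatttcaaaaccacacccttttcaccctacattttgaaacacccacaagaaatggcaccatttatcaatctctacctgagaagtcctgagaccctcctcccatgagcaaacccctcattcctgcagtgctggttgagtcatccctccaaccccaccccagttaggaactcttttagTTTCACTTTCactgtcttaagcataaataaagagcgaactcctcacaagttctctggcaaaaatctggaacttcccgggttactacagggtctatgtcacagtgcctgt
Igtp, chr11:58199306-58199605, plus strand: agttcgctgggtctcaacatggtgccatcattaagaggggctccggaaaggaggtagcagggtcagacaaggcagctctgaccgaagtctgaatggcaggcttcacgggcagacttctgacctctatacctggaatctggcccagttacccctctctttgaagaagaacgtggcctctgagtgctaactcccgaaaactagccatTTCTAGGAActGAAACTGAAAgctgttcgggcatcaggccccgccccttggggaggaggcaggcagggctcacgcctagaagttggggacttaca
Gbp2 has 1 IRF pair, read on the reverse strand, from base -59, and no GAS letters. Igtp has GAS letters from base -45 followed by an IRF pair from base -34.

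The IRF pair was found in 7 of the 8 genes with a window, against 3.99% of 27025 genes genome-wide. Counted by window it stood in 3.44% of 32851 windows of the same length. For Gbp3 it stood at 1 of 2 starts, and Ifi47 had neither motif. GAS letters were found in Gbp7, Tgtp2, Igtp and Irgm2, against 9.55% of all genes and 8.30% of all windows. Both motifs together occurred in 0.454% of all windows. In Igtp, Irgm2 and Tgtp2 the GAS letters began 11 bases before the IRF pair. This spacing was noticed after the sequences had been read, and it was present in 5 of the 32851 windows (0.0152%), the other two being the IRG genes Tgtp1 and Gm12185. No window held it in mirrored order. The longest run shared by the windows of Igtp and Irgm2 is 61 bases, so these genes are near-copies there too and are not independent. The stretches below show the motifs with 10 bases on each side, 5′ to 3′, capitals marking the matches.
Gbp3, chr3:142559989-142560024, plus strand: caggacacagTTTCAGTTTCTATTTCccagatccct
Gbp7, chr3:142530220-142530302, plus strand: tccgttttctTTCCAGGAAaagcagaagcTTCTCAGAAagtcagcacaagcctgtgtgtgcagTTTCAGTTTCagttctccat
Irgm1, chr11:48871425-48871460, minus strand: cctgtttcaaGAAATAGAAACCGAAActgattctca
Tgtp2, chr11:49064263-49064303, minus strand: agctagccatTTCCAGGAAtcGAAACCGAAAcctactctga
Irgm2, chr11:58214892-58214932, plus strand: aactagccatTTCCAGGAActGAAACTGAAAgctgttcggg
Tgtp1, chr11:48992304-48992344, minus strand: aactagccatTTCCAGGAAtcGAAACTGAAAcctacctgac
Gm12185, chr11:48927238-48927278, minus strand: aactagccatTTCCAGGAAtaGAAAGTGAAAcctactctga
Adjacent IRF pairs overlap in Gbp3 and in Irgm1, where their capitals form a single block. A match is a description of letters, and no binding was measured.

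**Figure D3:**
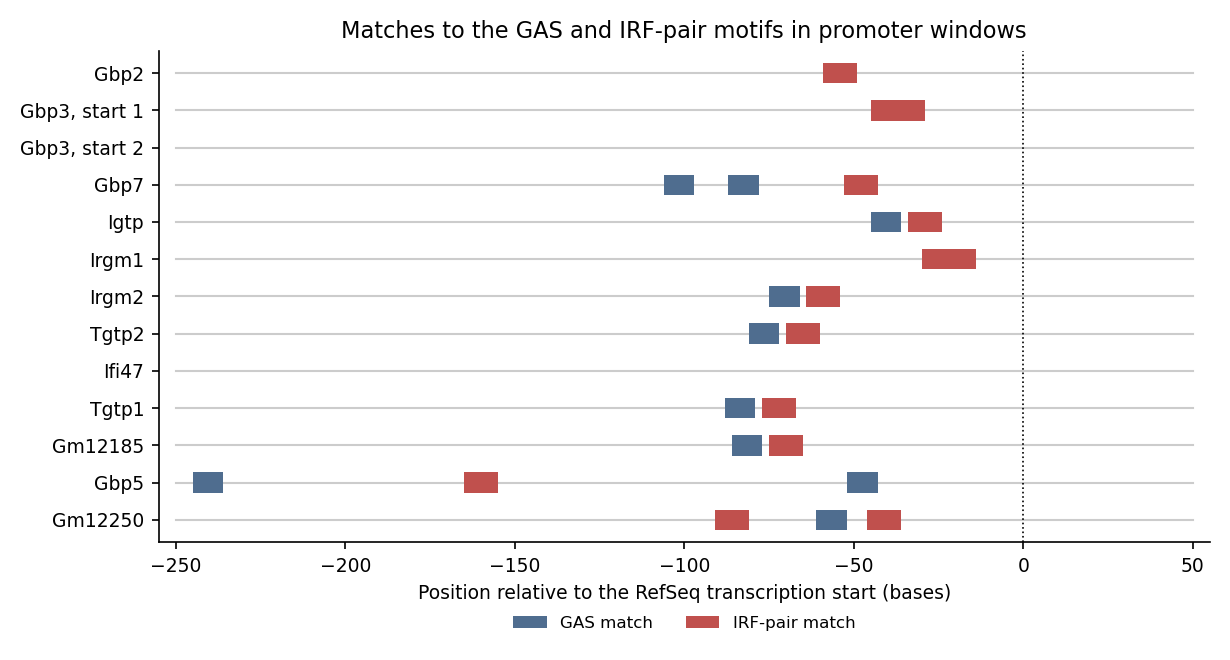
Position of GAS and IRF-pair matches in 300-base RefSeq promoter windows of GTPase genes, in bases from the annotated start (dotted line). In Igtp, Irgm2, Tgtp2, Tgtp1 and Gm12185 a GAS match lies directly before an IRF pair, and Ifi47 has no match.

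The relatives outside the 10 genes differed among themselves. Of 7 other GBPs, 3 passed the filter of a mean of 1 FPKM, and of 11 other IRGs, 5 passed. No gene among the 12166 tested passed an adjusted p of 0.05 in limma (0%), while 1150 had an unadjusted p under 0.05. These were 6.31% of tested genes lower and 3.14% higher with DMF. limma's voom on reads recovered from FPKM also called 0, with 1183 under 0.05 unadjusted. Gm12250, an IRG with an annotated promoter that holds both motifs, had 1.84 and 1.77 FPKM with DMF, against 10.1 and 10.4 FPKM in the controls, with a log2 difference of -2.005 ± 0.171 (SE, limma adjusted p = 0.147). Tgtp1 had 1.21 and 1.47 FPKM with DMF, against 5.51 and 6.43 FPKM in the controls (-1.57, adjusted p = 0.196). Both had separate groups. Gbp5, which with Gbp2 is among the prenylated mouse GBPs, had 4.97 and 5.13 FPKM with DMF, against 11.8 and 8.21 FPKM in the controls (-0.84, adjusted p = 0.41). Gbp8 was at 3.73 and 3.27 FPKM with DMF, against 6.26 and 5.88 FPKM in the controls (-0.65, adjusted p = 0.413).

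Other relatives overlapped between groups or stayed under the filter. Gbp9 had 5.91 and 6.84 FPKM with DMF, against 9.07 and 3.28 FPKM in the controls, an overlap that turned its log2 difference of 0.17 into -0.45 without control replicate 2. Irgq, a distant relative of the IRGs, had 12.5 and 11.3 FPKM with DMF, against 12.0 and 6.82 FPKM in the controls. Gbp2b, a GBP of the same cluster as Gbp2, stayed below the filter at 0.194 and 0.379 FPKM with DMF, against 0.12 and 0.0763 FPKM in the controls. No other GBP had both DMF libraries above both controls. Gbp11 was at 0.162 and 0.219 FPKM with DMF, against 0.985 and 1.44 FPKM in the controls, 6.36-fold lower with DMF with separate groups. Gbp6 and Irgc1, also under the filter, had both DMF libraries below both controls too, as did 26.8% of tested genes, and nothing is read from it. For Gbp6 the lower control was only 1.01 times the higher DMF library. Irgc1 had 1 and 1 reads with DMF, against 6 and 5 reads in the controls.

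Outside the GTPase families, 86 genes of the pathway around them were listed, all in the table, and 77 passed the filter. Both DMF libraries were below both controls for 43 and above for 10, against 26.8% and 26.4% of all tested genes. At an unadjusted p under 0.05, 20 were lower and 1 was higher with DMF. No adjusted p reached 0.05, and the values ran from 0.128 to 0.986. The lists were chosen with earlier results of these data known.

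Supply of interferon-gamma was low in every library. Ifng itself had 0 and 0 reads with DMF, against 15 and 21 reads in the controls (0.653 and 1.16 FPKM), at least 7.25-fold lower with DMF when a count of 0 is set to 3 reads per library. Of 7 tested genes that drive it, 5 were below and none above, with a median log2 difference of -1.08 that was -0.44 without control replicate 1. Stat4, which relays interleukin-12, had 2.98 and 3.42 FPKM with DMF, against 7.87 and 7.84 FPKM in the controls (-1.08, limma adjusted p = 0.231). Runx3, which acts with T-bet at the Ifng locus, had 6.39 and 6.54 FPKM with DMF, against 17.9 and 13.4 FPKM in the controls (-1.14, adjusted p = 0.259). The T-bet gene Tbx21 was at 3.27 and 3.72 FPKM with DMF, against 3.85 and 5.08 FPKM in the controls (-0.27, adjusted p = 0.579). With control replicate 2 left out its difference was -0.11, and with control replicate 1 left out it was -0.44.

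Of 15 tested signalling genes, 9 were below and 1 above, with a median log2 difference of -0.45 that was -0.26 without control replicate 2. Ifngr1, the ligand-binding chain, had 7.50 and 5.29 FPKM with DMF, against 20.3 and 24.7 FPKM in the controls (-1.68, limma adjusted p = 0.201). Ifngr2 had 6.99 and 6.58 FPKM with DMF, against 8.96 and 13.5 FPKM in the controls (-0.63, adjusted p = 0.536), and its difference was -0.36 without control replicate 2. Socs3, an inhibitor of JAK kinases downstream of several cytokines, had 9.66 and 9.69 FPKM with DMF, against 68.0 and 86.3 FPKM in the controls (-2.86, adjusted p = 0.128). Socs1, the inhibitor induced by interferon-gamma, had 10.5 and 9.93 FPKM with DMF, against 27.0 and 51.1 FPKM in the controls (-1.77, adjusted p = 0.282). The other inhibitors listed, Ptpn2, Ptpn6 and Pias1, overlapped between groups.

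Irf1, a transcription factor that binds interferon response elements, was also below. It had 14.9 and 14.8 FPKM with DMF, against 18.02 and 23.6 FPKM in the controls (-0.45, adjusted p = 0.554), and its difference was -0.26 without control replicate 2. Jak2 was the 1 signalling gene above in both DMF libraries, at 152 and 153 FPKM with DMF against 140 and 91.9 FPKM in the controls (0.43, adjusted p = 0.567). With control replicate 2 left out its difference was 0.13, and with control replicate 1 left out it was 0.73. Jak1 overlapped between groups at 49.98 and 49.1 FPKM with DMF, against 58 and 34.6 FPKM in the controls.

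Targets of interferon-gamma that are no GTPase were mostly below, 12 of 18 tested, with 2 above and a median of -0.58. Psmb8, a subunit of the immunoproteasome, had 32.2 and 32.9 FPKM with DMF, against 53.1 and 111 FPKM in the controls (-1.21, limma adjusted p = 0.501), a difference of -0.69 without control replicate 2. Upp1, a uridine phosphorylase, had 0.502 and 0.328 FPKM with DMF, against 3.48 and 5.75 FPKM in the controls (-1.96, adjusted p = 0.209). Cxcl10, a chemokine classically induced by interferon-gamma, lay the other way at 1.97 and 1.64 FPKM with DMF, against 0.752 and 1.21 FPKM in the controls (0.51, adjusted p = 0.561).

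Genes induced mainly by type I interferon were divided. Of 14 tested, 8 were below, 4 above, and the median was -0.75. That median was -0.43 without control replicate 2 and -0.44 with a gene length trend removed. Irf7, the factor that amplifies type I interferon, had 2.20 and 1.74 FPKM with DMF, against 5.90 and 10.97 FPKM in the controls (-1.62, limma adjusted p = 0.298). Rsad2, the antiviral enzyme viperin, had 2.02 and 1.84 FPKM with DMF, against 0.937 and 0.613 FPKM in the controls (0.73, adjusted p = 0.49), and it was the single pathway gene with an unadjusted p under 0.05 that was higher with DMF. Of the Mx proteins and very large interferon-induced GTPases, 4 stood in the table and 2 passed the filter. Mx2 had 2.22 and 2.25 FPKM with DMF, against 2.67 and 2.34 FPKM in the controls (-0.11, adjusted p = 0.765; -0.05 without control replicate 1), and Mx1 overlapped between groups.

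Autophagy proteins and ubiquitin ligases that help place IRGs and GBPs on vacuoles counted 6 of 13 below and none above, with a median of -0.20. Gabarap, an ATG8-family protein, had 83.9 and 85.9 FPKM with DMF, against 123 and 256 FPKM in the controls (-1.05, limma adjusted p = 0.536), with a difference of -0.53 without control replicate 2 and -1.58 without control replicate 1. Of 5 enzymes that attach and trim prenyl groups, as on Gbp2, none was below, 2 were above and the median was 0.09, or 0.05 without control replicate 1. Of 5 inflammasome genes, 3 were below and 1 above, with a median of -0.21 that was -0.50 without control replicate 1. Gsdmd, the pore-forming gasdermin D, had 17.4 and 15.5 FPKM with DMF, against 29.4 and 45.3 FPKM in the controls (-1.11, adjusted p = 0.378).

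**Figure D4:**
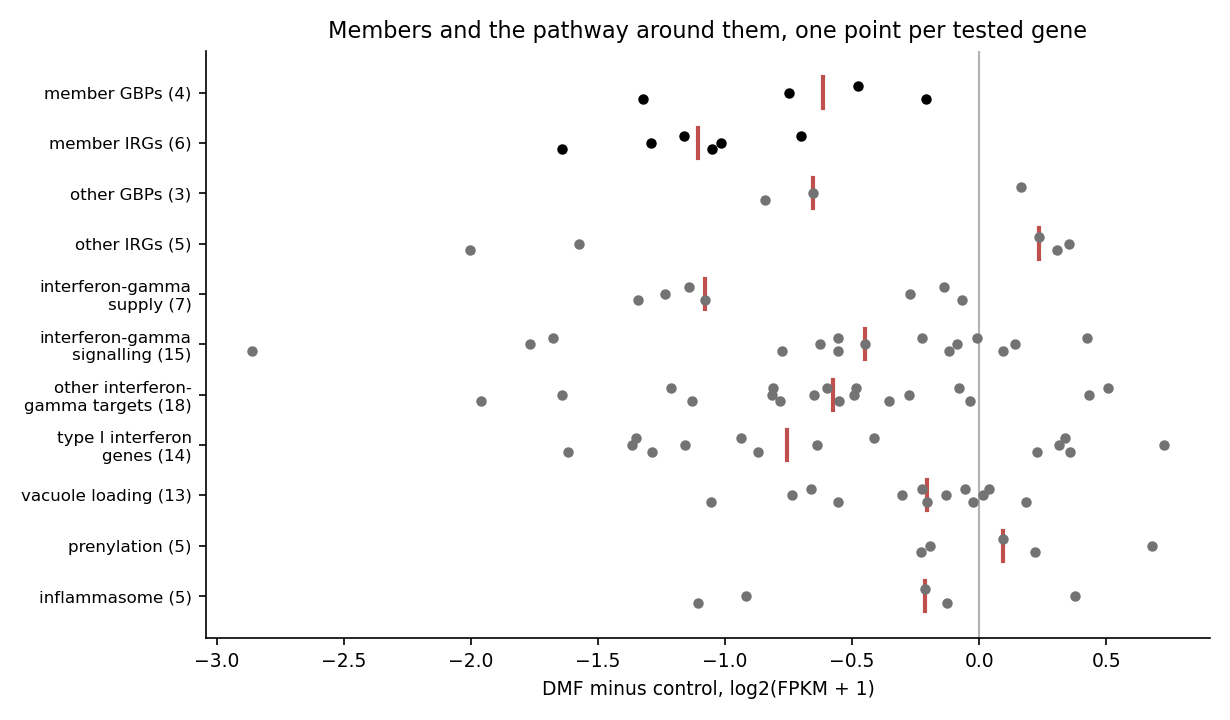
Log2 difference (DMF minus control, log2(FPKM + 1)) of each tested gene by list, one point per gene, with the median as a vertical bar and the number of tested genes in brackets. The IRGs among the 10 have a median of -1.11 and the prenylation enzymes one of 0.09.

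Marker genes of other cells moved with the GTPases in part, and their part in the result was not tested. All 3 tested CD8 T and NK cell markers were below with DMF. Cd8a had 0.105 and 0.0589 FPKM with DMF, against 1.68 and 2.17 FPKM in the controls, and Cd8b1 had 2.32 and 1.70 FPKM with DMF, against 4.95 and 9.20 FPKM in the controls. Klrd1, a receptor of NK and CD8 T cells, had 0.128 and 0.753 FPKM with DMF, against 5.28 and 8.85 FPKM in the controls. Klrk1, under the filter, was 8.24-fold lower with DMF. The NK cell genes Klrb1c and Ncr1 were at 0 in every library. Of 6 tested B cell markers, 5 were above and 1, Ighm, was below. The sum over all 7 listed was 87.4 and 85.8 FPKM with DMF, against 80.9 and 121 FPKM in the controls, and Ighm made up most of it. Without Ighm the other 6 summed to 24.8 and 23.4 FPKM with DMF, against 9.38 and 13.1 FPKM in the controls. Of 3 tested myeloid markers, 2 were below and 1 above, with sums over 9 genes of 8.53 and 7.07 FPKM with DMF, against 8.96 and 12.5 FPKM in the controls. T cell markers were below in 5 of 6, with sums of 1036 and 1048 FPKM with DMF, against 1146 and 1602 FPKM in the controls. Cd5, the largest part of that sum, overlapped at 672 and 685 FPKM with DMF, against 636 and 757 FPKM in the controls. For Cd3e and Cd4 the lower control was only 1.02 times the higher DMF library.

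Outside the listed genes, the 5 genes with the pattern most like the GTPases were Gpr146, Tnfsf11, Il2rb, Trib2 and Tcf7. Likeness was the root mean square difference over the 4 libraries between a gene's centred log2(FPKM + 1) and the median centred profile of the 10, among 9690 genes compared. Gpr146, an orphan receptor, came first at 0.0376 on the log2 scale, with 4.77 and 4.65 FPKM with DMF, against 11.01 and 10.4 FPKM in the controls. Tnfsf11, the cytokine RANKL, followed at 0.0416. Il2rb, a chain of the interleukin-2 receptor, stood at 0.0534, Trib2, a pseudokinase, at 0.0544 and Tcf7, a transcription factor of naive and memory T cells, at 0.0594. The measure rests on 4 libraries and is given as a description.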

How the data were processed

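Per the labels' protocols, total RNA went to an Illumina HiSeq2000. The authors deposited 1 table of FPKM for 54532 genes with coordinates and gene lengths, per the file headers. The submitters' processing notes name edgeR and mm8 without a role, and no source used here names an aligner or a counter. Of the gene identifiers, 54409 stand in GENCODE M21 (GRCm38), 98.3% at the same position, so coordinates are given on GRCm38. FPKM times gene length gave whole reads for 100% of values within 0.01, which gave reads per gene. The authors' scaling implied library sizes 1.068 and 1.066 times the read totals with DMF, against 1.032 and 0.876 times in the controls. All sample columns were used.

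The test was limma 3.58.1 in R 4.3.3 (eBayes with a trend, two-sided) on log2(FPKM + 1), DMF minus control, over 12166 genes with a mean of at least 1 FPKM, with Benjamini-Hochberg adjustment over all of them and a threshold of 0.05. Since the unit was FPKM, no count test was the main one. The script was tested on simulated data. The members, gene lists and tests were chosen with earlier results of these data known. The text names all 10 members, genes of the fixed lists and the 5 genes with the most similar profile. Some listed genes are not reported here by name. The Tfh genes were added as a check of the culture.

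Alternatives were a pseudocount of 0.1, no filter, a mean of at least 5 FPKM, a trimmed mean of log ratios (30% and 5% trimmed), quantile normalization, rescaling to total reads, eBayes without a trend, limma's voom on the recovered reads, removal of a gene length trend (loess, span 0.3), leaving out each library in turn, and a replicate block. Per-gene counting error at 51 to 4832 reads per member and library covers counting only, since no molecular identifiers are named. Sequences are from RefSeq (promoters, GRCm38.p6) and GENCODE M21, read with Python 3.11.15.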

Additional observations from a re-analysis of the deposited data

How the results depend on the processing

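Of 134 combinations of member and setting, 34 leave the difference as it is by construction, and the other 100 kept its direction, which the choice of members on this contrast already favours. All DMF libraries in a fit lay below all its controls for 10 members in the remaining settings. They did so for 9 with the trimmed mean of log ratios and for 8 with rescaling to total reads or voom, where Gbp4 or Gbp7 overlapped. Of the 12166 tested genes, 3259 had this order with all 4 libraries, 5958 without control replicate 1 and 4817 without control replicate 2. Fits with fewer libraries thus meet it more easily, and nothing is read from the count of members. Of those with a mean of at least 5 FPKM, all 4 were below. The GBP median of -0.61 was -0.83 with a pseudocount of 0.1, -0.77 with at least 5 FPKM and -0.37 to -0.88 with a library left out. The IRG median of -1.11 was -1.47, -1.33 and, with voom, -1.32. Rescaling to total reads and voom moved the median of all genes to 0.13 and 0.15. The difference between replicates 1 and 2 in the controls was not correlated with that in the DMF libraries (correlation -0.02 over 12166 genes). Each group gives a single difference per gene, with unequal spread, so this cannot decide whether libraries were paired. The replicate numbers are used as names of samples. With the replicate block 552 genes, 16 of them in the pathway lists, passed an adjusted p of 0.05 against 0. Leaving out a library gave 6 to 7420 genes (7420 without control replicate 1, 1007 without control replicate 2) and 0 to 64 in the pathway lists (64 and 27). The lone control is then assumed to vary like the DMF libraries. With a library left out Gbp9 lay between -0.45 (without control replicate 2) and 0.78, Irgq between -0.014 and 0.72 and Jak1 between -0.22 and 0.50, and Jak1 turned to -0.018 with the length trend removed. Mx2 turned to 0.00045 with rescaling to total reads and 0.0024 with voom. With quantile normalization Cd3e turned to 0.11 and Cd4 to 0.18. The cause of these changes was not tested. With 2 libraries a group no library could be tested for standing apart, and depth limits the members near 1 FPKM, Tgtp2 most at 51 reads.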
